A study of Homo sapiens with 6 samples.

Results

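TRAF1 and 9 further survival genes linked to NF-kB signalling were described in AB 8/13 cells, a conditionally immortalized human podocyte line. The genes were TRAF1, TRAF2, TRAF3, BIRC2, BIRC3, BCL2A1, BCL2L1, MCL1, CFLAR and TNIP1, and each had 1 row among the 20745 genes of the deposited table. They were chosen by symbol, at a time when the authors' comparison of the groups, TRAF1's place in it included, was known. RNA came from 3 vehicle cultures and 3 cultures given 1 µM levamisole, a steroid-sparing drug used in nephrotic syndrome, for 24 h. Each of the 3 cultures of a group was from a different passage of this single line. The line carries a temperature-sensitive immortalizing gene, and the cells had been moved to the growth-restrictive temperature to differentiate. By the sample labels both groups were kept without serum, but the study's methods give complete medium, which holds serum, for vehicle.

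The level given for each gene is its base mean, the authors' mean of normalized read counts over all libraries of their fit. It pools vehicle and levamisole cultures and may include further libraries, so it carries no SD and no number of replicates, and an order of genes by it need not hold within either group. The fold changes and p-values of the table are the authors' own comparison and were not used here, so no effect of levamisole is reported. Depth per library is unknown.

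Tumour necrosis factor (TNF) receptors signal through TRAF adaptors, which recruit the ubiquitin ligases BIRC2 and BIRC3 to build the ubiquitin chains that activate NF-kB. NF-kB then drives the transcription of genes that restrain cell death, several of the present genes among them. Podocytes have little capacity to divide, and their loss is a feature of glomerular disease.

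In the promoters of these genes, matches to the kappa B consensus, the 10-letter DNA motif bound by NF-kB dimers, were found for BIRC3, CFLAR, TNIP1 and TRAF3. RefSeq promoter windows on GRCh38.p14, from 250 bases before to 50 bases after each annotated start, were found for 9 of the 10 genes, as 17 windows (MCL1 had no entry). The stretches are shown because they hold the only consensus matches in those windows. Each is read 5′ to 3′ on the gene's strand, with the match in capitals. The 4 genes lie on chromosomes 11, 2, 5 and 14.
BIRC3, plus strand, first match, chr11:102317275-102317304: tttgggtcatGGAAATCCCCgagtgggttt
BIRC3, plus strand, next match, chr11:102317339-102317368: tattaccgctGGAGTTCCCCtaagtcctaa
CFLAR, plus strand, chr2:201118609-201118638: cgcggggggcGGGGAATTCCgcagacagga
TNIP1, minus strand, chr5:151081057-151081086: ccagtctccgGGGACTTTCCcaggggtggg
TRAF3, plus strand, chr14:102777406-102777435: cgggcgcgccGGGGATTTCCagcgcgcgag

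The BIRC3 matches began 199 and 135 bases before the start site, and both read as the consensus on the opposite strand. On the gene's own strand, the CFLAR match began 97 bases before the first of its 4 RefSeq starts. For TNIP1 it began 42 bases before the upstream of its 2 RefSeq starts. For TRAF3 the distance was 33 bases. All 5 matches lay before the start site.

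Of the 17 windows, 4 held a consensus match, against 11.3% of all 35116 windows of the reference table. By gene this was 4 of 9, against 13.3% of 27305 genes and 17.3% of the 9865 genes that had both a window and a base mean of 5 or more. These shares are a description of so few genes and were not tested. The genes were also chosen as linked to NF-kB, so a share above that of all genes may follow from the choice. A gene counted if any of its windows held a match. The 9 genes had 17 windows and all 27305 genes had 35116, so these genes had more windows each on average. No match was found in the windows of TRAF1, TRAF2, BIRC2, BCL2A1 and BCL2L1, which says only that these letters are absent there. The median share of G and C was 56.7% in the 17 windows and 58.7% in all windows. It ran from 38.3% at a CFLAR start to 86% at TRAF3.

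**Figure D1:**
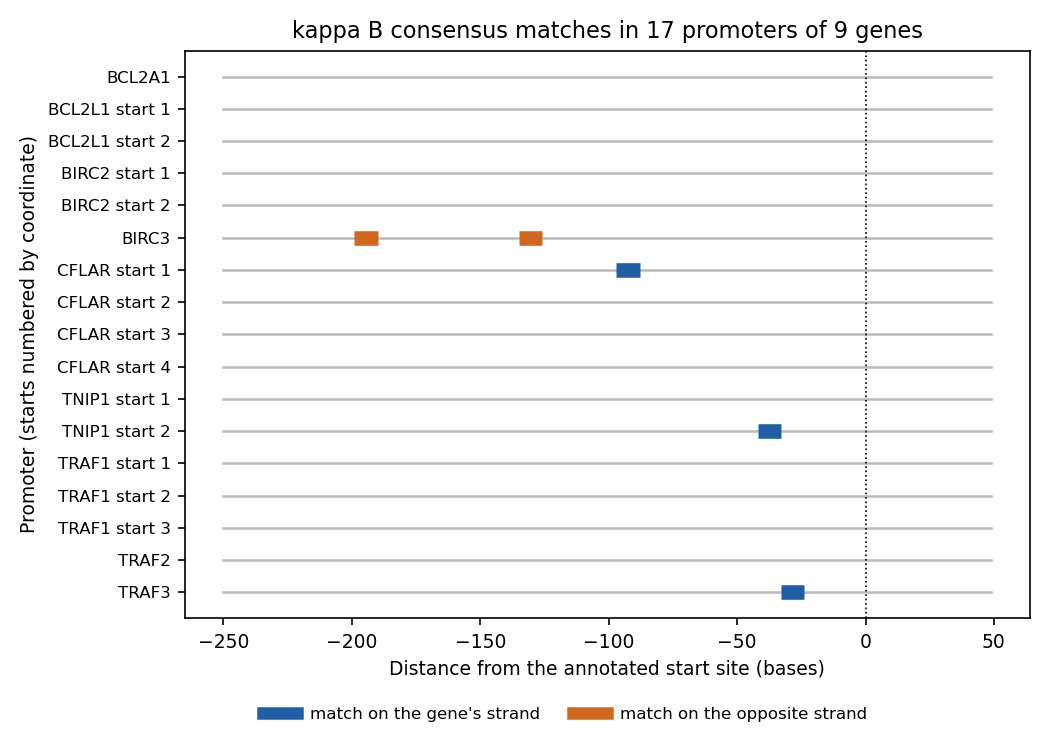
Each grey line is 1 RefSeq promoter window of a gene, and the x axis is the distance in bases from its annotated start site (dotted line). Bars mark matches to the kappa B consensus, which fall in 4 of the 17 windows, with 2 of them in the window of BIRC3 on the opposite strand.

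All 10 genes had a base mean of at least 5, as did 64.3% of all genes. Their median base mean was 221 mean normalized counts, against 21.8 for all genes. The base means of 8 genes were above that of the median gene, and those of TRAF2 and BCL2A1 were just below it. Together the 10 genes took 0.0547% of the summed base means, or 0.0839% without the 22 mitochondrial genes, which took 34.8%.

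**Figure D2:**
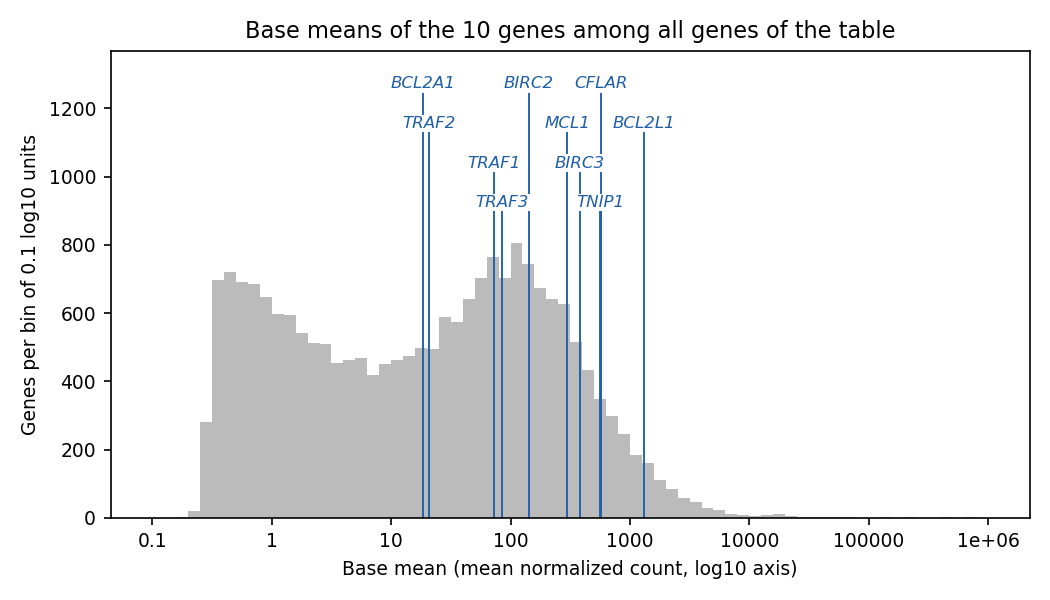
Grey bars count all 20745 genes by base mean (x axis, mean normalized count, log10 axis; y axis, genes per bin), and blue lines mark the 10 genes. TRAF2 and BCL2A1 lie close to the median gene at 21.8, and BCL2L1 lies highest at 1318.

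Levels of different genes were compared per kilobase (kb) of the union of annotated exons. The libraries were made by a CEL-seq protocol, which reads transcripts near their 3′ ends, so the base mean per gene is given beside the value per kb. Counts of such reads need not rise with transcript length, so a level per kb can be low only because the exon union is long. An order found per kb but not per gene may thus reflect length. On the per kb scale, the levels of the 10 genes ran from 5.70 for TRAF2 to 314 for BCL2L1, a ratio of 55.1. In descending order BCL2L1 was followed by TNIP1, BIRC3, MCL1, BIRC2, CFLAR, BCL2A1, TRAF1 and TRAF3. With no value per culture, it is not known which neighbours in this order differ beyond the spread between cultures.

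**Figure D3:**
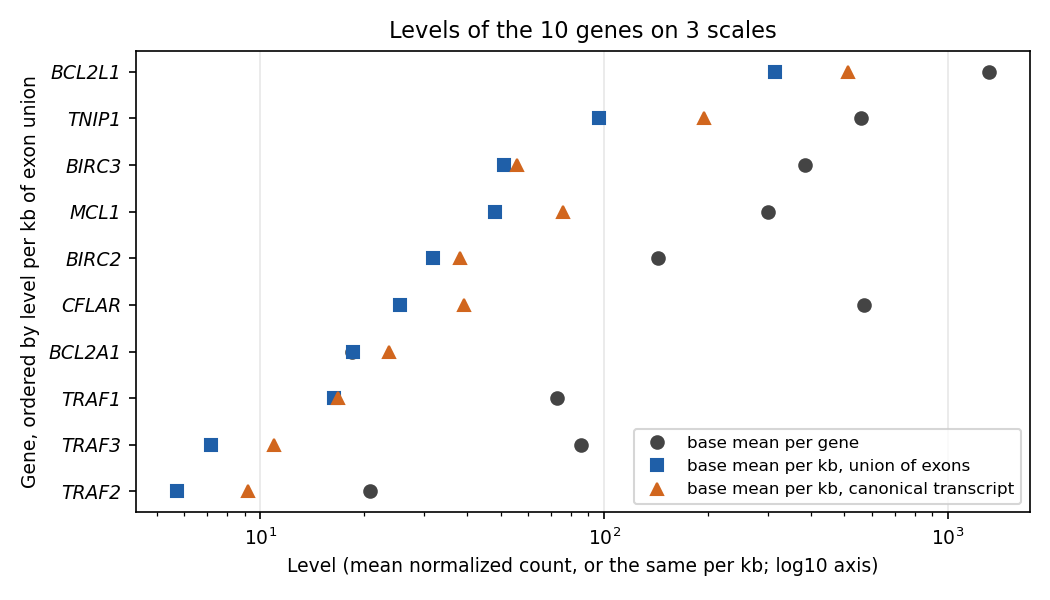
Levels of the 10 genes are shown as base mean per gene (circles), per kb of exon union (squares) and per kb of the canonical transcript (triangles) on a log10 axis, without error bars because no value per culture was used. BCL2L1 is highest on all 3 scales, and CFLAR shifts most between them.

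The 3 TRAF adaptors had the lowest levels per kb of the 10 genes, but by base mean BCL2A1 was the lowest, at 18.5. TRAF1 (ENSG00000056558, GRCh38 chromosome 9, 120902393 to 120929173, minus strand) lacks the RING domain of its relatives and forms mixed trimers with TRAF2. It had a base mean of 73.1, above 65.9% of all genes, and 16.3 per kb. TRAF2 (ENSG00000127191, chromosome 9, 136881912 to 136926607, plus strand), which brings BIRC2 and BIRC3 to TNF receptors, had a base mean of 20.9, above 49.6% of genes.

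TRAF3 (ENSG00000131323, chromosome 14, 102777449 to 102911500, plus strand) restrains the non-canonical NF-kB pathway, in which it directs the kinase NIK to degradation. Its base mean was 85.4, above 68.3% of genes, and its level per kb was 7.19. Per gene TRAF3 was 1.17 times TRAF1, but per kb it was 0.440 times TRAF1, so the order of this pair turned with the scale. The exon union was 11883 bases for TRAF3 and 4476 bases for TRAF1. TRAF1 was above TRAF2 on both scales, by 3.499 times per gene and 2.87 times per kb. Per kb of the longest or of the canonical transcript, TRAF1 was 1.82 times TRAF2.

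All 7 TRAF genes had a base mean of at least 5. Per kb, TRAF1 made up 20.1% of the summed level of the family, TRAF3 8.84% and TRAF2 7.01%. By base mean the shares were 16.6% for TRAF1, 19.4% for TRAF3 and 4.75% for TRAF2. TRAF7, which lacks the TRAF domain of the others, was the highest at 30.97 per kb, or 38.1% of the sum. TRAF5 was the lowest, with 0.935 per kb and a base mean of 8.43.

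The ubiquitin ligases BIRC3 and BIRC2, also known as cIAP2 and cIAP1, lie side by side on chromosome 11. BIRC3 (ENSG00000023445, 102317484 to 102339403) and BIRC2 (ENSG00000110330, 102347211 to 102378670) are both on the plus strand, with 7807 bases between them. Their proteins ubiquitinate RIPK1 in the TNF receptor complex and, with TRAF2 and TRAF3, keep NIK low.

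BIRC3, itself a classic NF-kB target and the gene with 2 consensus matches above, had a base mean of 383, above 89.5% of genes, and 51.1 per kb. BIRC2 had a base mean of 143, above 76.5% of genes, and 31.7 per kb. The level of BIRC3 was 1.61 times that of BIRC2 per kb and 2.68 times per gene. BIRC2 and BIRC3 are close paralogs, and reads that fit both equally well are left uncounted by HTSeq's default setting.

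Of the inhibitor of apoptosis (IAP) genes listed, 6 of 8 were analysed, and 5 had a base mean of at least 5. BIRC3 was the highest and made up 36.9% of their summed level per kb, while BIRC2 made up 22.8%. By base mean these shares were 38.5% and 14.4%. XIAP, a direct inhibitor of caspases, was at 32.0 per kb, beside 31.7 for BIRC2, but its base mean of 305 was above the 143 of BIRC2. NAIP, a sensor of bacterial proteins, was the lowest at 0.301 per kb and a base mean of 3.03. BIRC7 and BIRC8, looked up by symbol, had no base mean.

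Among the BCL2 relatives, which hold mitochondria intact by binding BAX, BAK1 and the BH3-only proteins, BCL2L1 had the highest level. BCL2L1 (ENSG00000171552, chromosome 20, 31664452 to 31723989, minus strand), which encodes BCL-XL, had a base mean of 1318, above 97.4% of genes, and 314 per kb. MCL1 (ENSG00000143384, chromosome 1, 150560895 to 150579738, minus strand), whose protein turns over quickly, had a base mean of 299.7, above 86.7% of genes, and 48.2 per kb. BCL2A1 (ENSG00000140379, chromosome 15, 79960892 to 79971196, minus strand), an NF-kB target best known in blood cells, had a base mean of 18.5, above 48.3% of genes.

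BCL2A1 has the shortest exon union of the 10 genes, 995 bases, and its level of 18.6 per kb was above 70.2% of genes. Per kb, BCL2L1 was 6.52 times MCL1 and 16.9 times BCL2A1. MCL1 was 2.59 times BCL2A1 per kb, but 16.2 times per gene.

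Of the 6 anti-apoptotic genes, 5 had a base mean of at least 5, and BCL2L1 made up 72.2% of their summed level per kb and 68% of their summed base means. BCL2L2 was at 48.3 per kb, beside 48.2 for MCL1, but its base mean of 234 was below the 299.7 of MCL1. BCL2 itself was lower, at 5.31 per kb and a base mean of 66.9. BCL2L10 was the lowest, with a base mean of 0.453. Of the 11 pro-apoptotic relatives, 10 reached a base mean of 5. They ran from HRK at 0.170 per kb to PMAIP1, which encodes the MCL1-binding protein NOXA, at 118 per kb.

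CFLAR (ENSG00000003402, chromosome 2, 201116154 to 201176687, plus strand) encodes c-FLIP, a relative of caspase-8 that holds back its activation at death receptors. Its base mean was 571, above 93.0% of genes, the second highest of the 10. It also has by far the longest exon union, 22478 bases from 24 annotated transcripts, and its level per kb was 25.4, above 75.2% of genes. So CFLAR was above BIRC3 per gene, by 1.49 times, and below it per kb, at 0.497 times. CFLAR isoforms of different length share one row, and their shares are not known from it.

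All 8 genes of the death receptor list had a base mean of at least 5. CASP8, the initiator caspase, was the highest at 152 per kb with a base mean of 1100.1, and made up 34.99% of the summed level against 5.85% for CFLAR. By base mean the share of CFLAR was 21.2%, second to 40.9% for CASP8. CASP10 was the lowest per kb at 7.53, and FADD, the adaptor that joins the receptors to CASP8, had the lowest base mean at 29.5.

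TNIP1 (ENSG00000145901, chromosome 5, 151029945 to 151093577, minus strand) encodes ABIN1, a ubiquitin-binding partner of A20 that limits NF-kB activation and cell death. Its base mean was 560.5, above 92.9% of genes, and its level of 96.8 per kb was the second highest of the 10. TNFAIP3, which encodes A20, was at 41.1 per kb with a base mean of 265. A base mean of 5 or more was found for 6 of the 7 genes of this list. RNF11 was the highest per kb at 136, TAX1BP1 had the highest base mean at 1009.8, and TNIP3 was the lowest at 0.910 per kb.

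**Figure D4:**
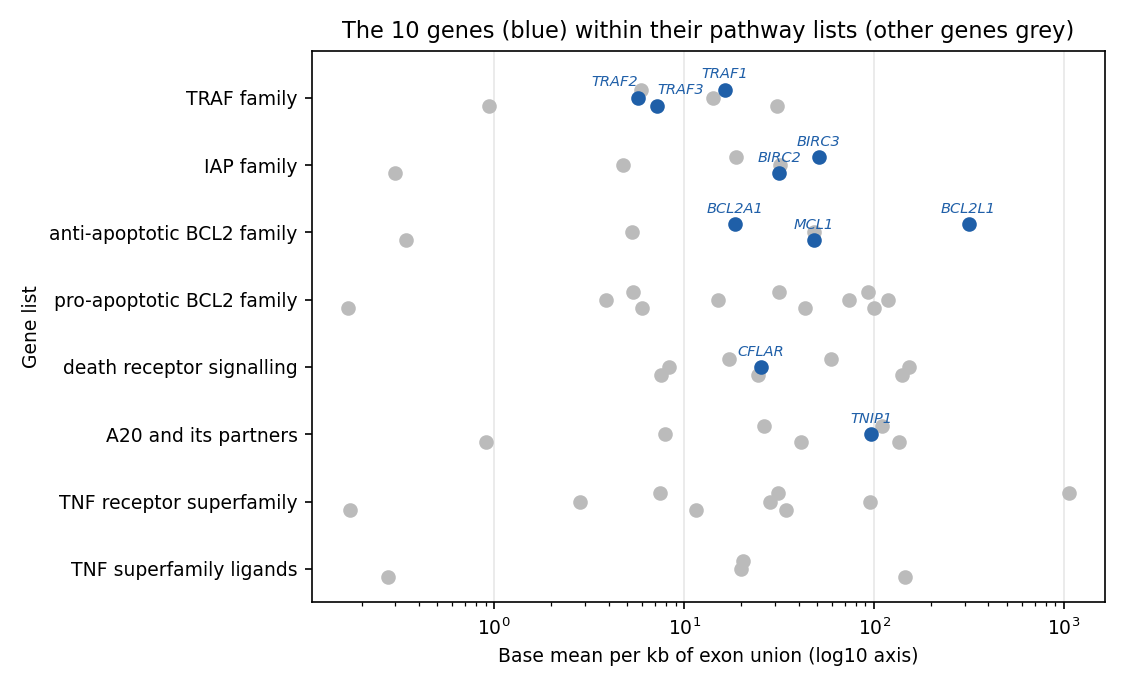
Each point is 1 gene of a pathway list at its base mean per kb of exon union (log10 axis), with the 10 genes in blue and other listed genes in grey. BCL2L1 is the highest of the anti-apoptotic list and BIRC3 of the IAP list, whereas CFLAR and TNIP1 are exceeded by other genes of theirs.

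Receptors and ligands upstream of these genes were read in the same table. Of 9 TNF receptor genes, 8 had a base mean of at least 5. TNFRSF12A, the receptor for TWEAK, was the highest at 1058 per kb with a base mean of 1906. TNFRSF1A, the TNF receptor of most tissues, was at 34.2 per kb, while TNFRSF1B was the lowest at 0.174 per kb with a base mean of 0.656. Of 7 ligand genes, 4 were analysed and 3 had a base mean of at least 5. Among these ligands, TNFSF10 (TRAIL) was the highest at 145 per kb and LTB the lowest at 0.275. TNF itself was at 19.9 per kb with a base mean of 33.4. LTA, CD40LG and FASLG, looked up by symbol, had no base mean. Over the 48 pathway genes analysed other than the 10, 42 had a base mean of at least 5, and the median level was 20.2 per kb against 28.5 for the 10 genes, or 84.1 against 221 by base mean.

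The podocyte label was read against markers in the same way. Of 12 podocyte markers, 10 were analysed and 9 had a base mean of at least 5. VIM, ACTN4, CDKN1C and CD2AP had base means from 929 to 19062. SYNPO was at 22.8, NES at 18.1 and PODXL at 15.3. The more podocyte-restricted WT1 was at 6.21, TCF21 at 7.20 and PTPRO at 0.333. NPHS1 and LMX1B, looked up by symbol, had no base mean. Endothelial, leukocyte and mesangial markers, of which 5 were analysed, all had base means under 5, whereas of the 3 proximal tubule markers analysed, CUBN and SLC34A1 were under 5 and AQP1, a water channel, was at 243.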

How the data were processed

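Libraries of 6 cultures were prepared by an adapted CEL-seq protocol. Per the labels and the study's methods, the authors trimmed reads with Trim Galore 0.4.5, mapped them to GRCh38 with STAR 2.7.5a, counted them with HTSeq 0.11.0 on Ensembl 95 annotation and ran DESeq2 1.22.0. The authors deposited 1 table with, per gene, a signal value (the base mean, counts divided by size factors and averaged over the libraries of the fit) and their own comparison (log2 fold change, standard error, statistic, p-values). That comparison was not used.

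Percentiles are the share of genes with a lower base mean. Exon unions and positions come from GENCODE 44 on GRCh38, a later annotation than the authors', which matched 20599 of 20745 gene identifiers. The canonical transcripts' last 500 exonic bases were checked for exons of other genes, and no member had any there, on either strand. Genes with identifiers newer than the newest in the authors' data were left out of this check. Promoters are from RefSeq. The kappa B consensus is GGG, a purine, any 2 bases, 2 pyrimidines and CC, searched on both strands. Python 3.11.15, NumPy 2.4.6, pandas 2.3.3 and matplotlib 3.10.9 were used, and the functions were tested on simulated data.

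The members and lists were chosen with earlier results of these data known. All members were named, and in each pathway list the highest and lowest genes by base mean; some others were named after their values were seen. With no value per culture, no test, interval or SD could be given. Some of the podocyte markers listed are not reported here.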

Additional observations from a re-analysis of the deposited data

How the results depend on the processing

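No paired analysis was possible because the only values used are means over all libraries. For the same reason fits with edgeR or DESeq2 and left-out replicates were not run, and protein identity between members was not run because no protein sequences were used. All 10 genes reached a base mean of 5, as all 10 did 1 and 10, while 8 reached 50. For scale, 64.3% of all genes reached 5, and the base mean of TRAF6, 48.4, was above 59.7% of all genes. With GGNNTTTCC in place of the consensus, a motif that overlaps it, 4 of 9 genes had a match, with TRAF1 (after its middle start) and not CFLAR among them, and 9.14% of all genes that have a window and reach a base mean of 5 did. With GGGNNNNCC the count rose to 7 of 9, a motif so loose that 70.9% of those genes hold it. TRAF1, above 65.9% of all genes, was above 46.9% when only genes reaching a base mean of 5 were ranked, and above 52.2% of protein-coding genes. Ranked in those ways, TRAF2 fell from 49.6% to 21.6% and 31.2%, and BCL2A1 from 48.3% to 19.5% and 29.7%. Per kb of the longest transcript 4 of the 10 genes kept their rank, and per kb of the canonical transcript, added after the data were seen, 6 did, with no gene moving by more than 1 rank in either. In both, MCL1 passed BIRC3 and CFLAR passed BIRC2. Per kb of the longest transcript TRAF3, not TRAF2, was the lowest. Per gene, 2 of the 10 genes kept their rank and CFLAR moved by 4. The depth behind each base mean is unknown, which limits all of these values.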
